A study of Gallus gallus with 24 samples.

Results

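The cecum of Leghorn chicks was compared with that of Fayoumi and broiler chicks 2 h after a challenge with SE. The arrays were chosen by their titles: 2 of Leghorn, 2 of Fayoumi and 2 of broiler cecum at 2 h, or 6 of the 24 arrays of the series. The whole series covers spleen and cecum of these lines at 2 h and 16 h. On every array, RNA from 3 challenged birds of a line, 1 day old, was hybridised against RNA from 3 unchallenged birds, in 2 colours. The challenge agent is written only as SE, which the labels do not spell out. Each line had a first array and an array titled as a replicate. The labels do not state whether the replicate array carried other birds, the same RNA or exchanged dyes, so p-values here describe only the spread between arrays, which may be technical. In the main fit that spread was pooled over all 12 groups of the series. Birds were pooled, so no value belongs to a single bird. The Leghorn line is called G-B1 on a spleen array of the series, and no label gives an allele or a further treatment for the cecum groups.

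The ceca are paired blind sacs at the end of the chicken intestine, with a dense microbial community and lymphoid tissue of their own, and they are a main site where enteric bacteria settle in young chicks. Leghorns are egg-laying chickens, broilers are bred for meat, and the Fayoumi is an Egyptian breed often used in work on disease resistance. A 2-colour array gives the ratio of a transcript between a pair of RNA samples, not its level, and in a whole organ a change in the number of cells of a type and a change in RNA per cell cannot be told apart.

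The probes are known only by clone identifiers. None of the identifiers was found in the reference gene table (0 matches), so no probe could be tied to a gene, and neither gene groups nor markers of cecal cell types could be read. What the identifiers do give is the clone group, in the prefix, and the plate. The 15609 probes tested were 11447 C00041 clones, 1983 Pat clones, 1798 DT40subNB clones, 378 DKFZ426 clones and 3 probes with the prefix PEN. What a prefix stands for is not stated in the file, although DT40 is known as a B cell line of the chicken. The 160 control spots, 32 for each of 5 names, were left out.

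All values are log2 ratios, with the base inferred. Centring subtracted from each array the median of its 15609 probes. The deposited medians of the 6 arrays ran from -0.39 for the first Fayoumi array to 1.22 for the replicate broiler array. The direction of the ratio is not stated. The replicate Leghorn array correlated below -0.3 with the first Fayoumi array and with both broiler arrays, so the direction was not settled between lines either. A positive value is therefore called positive, not higher in challenged birds. The main comparisons were repeated with signs turned in 3 ways: on both Leghorn arrays, on the replicate Leghorn array alone, and on every replicate array.

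With the signs as deposited, Leghorn ran against the other lines over a large share of the probes. Across 15609 probes, the mean of the 2 Leghorn arrays correlated with the mean of the 4 Fayoumi and broiler arrays at Pearson r = -0.44 (Spearman rho = -0.49), and the Fayoumi mean correlated with the broiler mean at r = 0.54 (rho = 0.56). The probes of an array share its slide and its RNA pools, so these are descriptions of 6 arrays with no p. The Leghorn relation rested on 1 array: without the replicate Leghorn array r was -0.08, and without the first Leghorn array it was -0.49. With both Leghorn arrays turned, r was 0.44 by construction. With the replicate Leghorn array alone turned, it was 0.39. With every replicate array turned, it was 0.10.

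The pairs of single arrays show the same uneven weight. The Leghorn arrays correlated with each other at r = 0.09 only, against 0.28 for the Fayoumi pair and 0.28 for the broiler pair. Between Fayoumi and broiler, r was 0.47 for the first arrays, 0.27 for the replicate arrays, 0.33 for the first Fayoumi with the replicate broiler array and 0.30 for the replicate Fayoumi with the first broiler array. All 4 of these cross-line values were thus near or above the values within a line. The replicate Leghorn array gave r = -0.41 and -0.24 with the first and replicate Fayoumi arrays, and -0.38 and -0.35 with the first and replicate broiler arrays. The first Leghorn array stayed near 0, at -0.01 and -0.12 with the Fayoumi arrays and -0.09 and -0.01 with the broiler arrays.

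**Figure D1:**
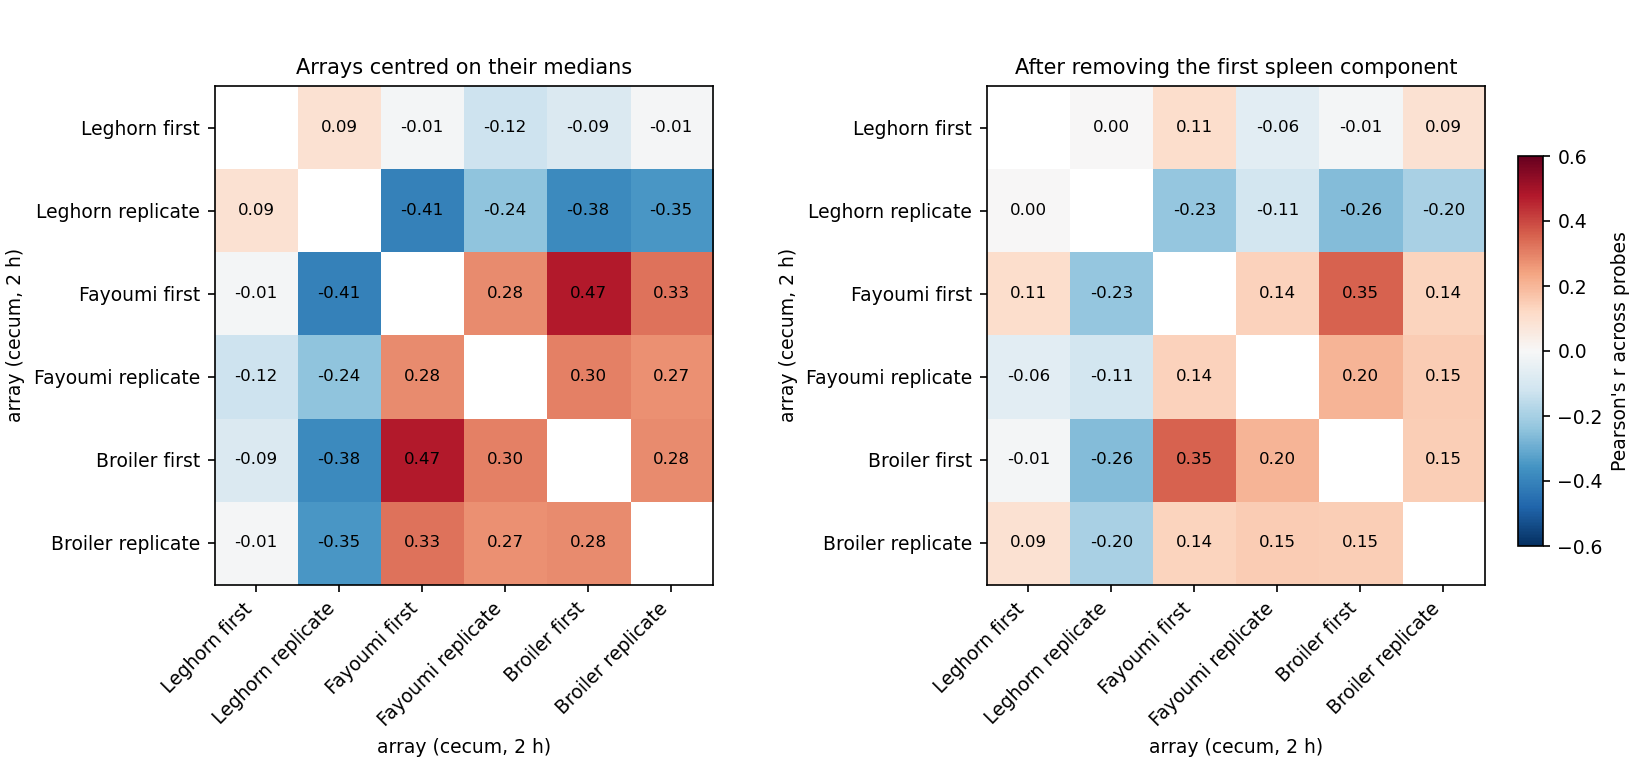
Pearson correlation across 15609 probes for each pair of the 6 cecum 2 h arrays, with signs as deposited, after centring (left) and with the first spleen component also removed (right). On the left the 4 Fayoumi and broiler arrays are all positive with each other, the replicate Leghorn array is negative with all 4, and the first Leghorn array is close to 0 with every other array.

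The arrays also differed in their spread. The SD across probes was 0.66 on the replicate Leghorn array, the widest of the 6, and 0.44 on the first Leghorn array, the narrowest, with the other arrays between 0.44 and 0.55. On these 6 arrays the control spots named for plant genes also differed between the lines. Their median was -0.36 on the first and -0.26 on the replicate Leghorn array, 0.33 and 0.46 on the Fayoumi arrays, and 0.23 and 0.55 on the broiler arrays. All 4 plant names lay below 0 on both Leghorn arrays and above 0 on the other arrays. The file does not state what these spots were meant to bind, and their part in the difference between the lines was not tested beyond the fit with their median as a covariate given below.

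Both Leghorn arrays lay above all 4 Fayoumi and broiler arrays for 2779 probes, which is 17.8% of those tested, and below all 4 for 2982 probes (19.1%). The clone groups divided these probes unevenly. Of the 1983 Pat clones, Leghorn was above the other arrays for 730 (36.8%) and below for 36 (1.82%). Of the DT40subNB clones, it was above for 690 (38.4%) and below for 82 (4.56%), and of the DKFZ426 clones above for 114 (30.2%) and below for 20 (5.29%). The C00041 clones leaned the other way, with Leghorn above for 1245 (10.9%) and below for 2842 (24.8%). With both Leghorn arrays turned the counts over all probes were 874 above (5.6%) and 1291 below (8.27%). With only the replicate Leghorn array turned they were 914 (5.86%) and 1160 (7.43%), and with every replicate array turned 785 (5.03%) and 612 (3.92%). The unevenness between clone groups was also smaller then: the Pat clones had 94 above and 124 below with both Leghorn arrays turned. With every replicate array turned, the lean ran the other way. The Pat clones then had 27 above (1.36%) and 99 below (4.99%), and the C00041 clones 684 above (5.98%) and 410 below (3.58%). The DT40subNB clones had 71 above and 77 below, and the DKFZ426 clones 3 above and 26 below.

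The medians of the clone groups show on which arrays this lies. The Pat clones had a median log2 ratio of -0.03 on the first and 0.83 on the replicate Leghorn array, against -0.48 and -0.17 on the Fayoumi arrays and -0.30 and -0.36 on the broiler arrays. On the replicate Leghorn array 88.9% of the Pat clones were above 0, on the first Leghorn array 46.7%, and on the other 4 arrays between 16.7% and 28.4%. For Pat clones the arrays of Fayoumi and broiler thus all leaned negative, and the replicate Leghorn array stood far on the positive side.

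The DT40subNB clones had medians of 0.11 and 0.44 on the Leghorn arrays, -0.23 and -0.14 on the Fayoumi arrays and -0.26 and -0.27 on the broiler arrays. This was the group of the 3 smaller ones in which the medians of both Leghorn arrays were positive and those of all 4 other arrays negative. The DKFZ426 clones had medians of -0.05 and 0.55 on the Leghorn arrays, -0.26 and -0.13 on the Fayoumi arrays, and -0.23 and -0.32 on the broiler arrays. The C00041 clones, with -0.01 and -0.14 in Leghorn, 0.12 and 0.07 in Fayoumi and 0.10 and 0.13 in broiler, lay on the opposite side of 0 from the 3 smaller groups on each array but the first Leghorn one. They hold most of the probes, and centring on the median of all probes ties their median to that of the rest: what is measured is the gap between groups, not the place of 0.

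**Figure D2:**
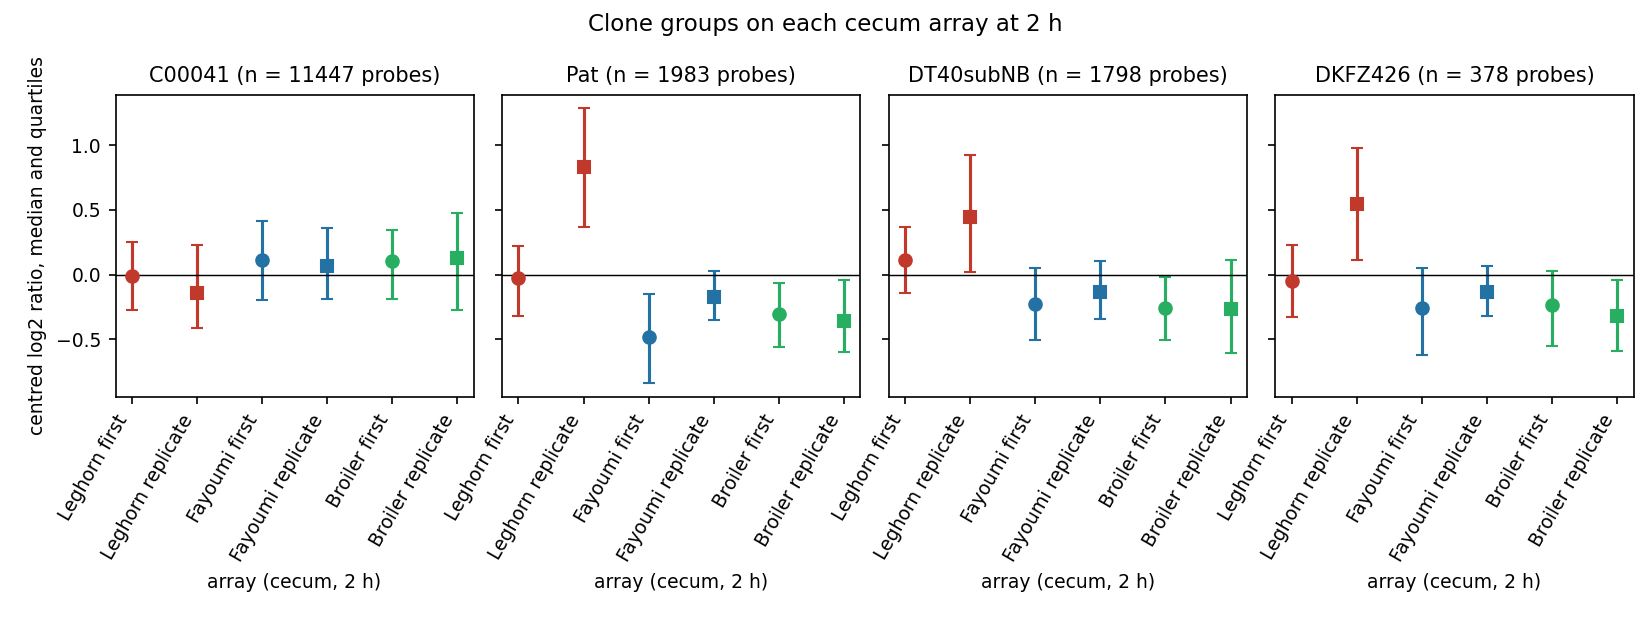
Log2 ratio of the 4 large clone groups on each of the 6 cecum 2 h arrays after centring, as the median with the 25th and 75th percentiles across probes (vertical lines, spread of probes and not of replicates), with circles for first and squares for replicate arrays. The Pat, DT40subNB and DKFZ426 medians are highest on the replicate Leghorn array and negative on all 4 Fayoumi and broiler arrays.

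As a difference, Leghorn minus the mean of Fayoumi and broiler had a median over probes of 0.74 for Pat clones (quartiles 0.44 and 1.02), 0.57 for DT40subNB clones (0.17 and 0.88) and 0.53 for DKFZ426 clones (0.18 and 0.85). It was -0.17 for C00041 clones, a sign that turned to 0.03 with the plant spots as a covariate, and 0.05 for all probes. Without centring the medians were 0.39 for Pat, 0.23 for DT40subNB, 0.19 for DKFZ426 and -0.51 for C00041 clones, so the signs held while every size moved by the difference between the deposited array medians. The difference was positive for 91.7% of the Pat clones, 82.3% of the DT40subNB clones, 81.5% of the DKFZ426 clones and 40.4% of the C00041 clones, against 52.7% of all probes. Without the replicate Leghorn array the medians were 0.28 for Pat, 0.36 for DT40subNB and 0.19 for DKFZ426 clones. They therefore kept their sign and were smaller in each of these groups. With every replicate array turned, they were -0.35, -0.16 and -0.24. With both Leghorn arrays turned, they were -0.04 for Pat, -0.07 for DT40subNB and 0.00 for DKFZ426 clones, and with the replicate Leghorn array alone turned -0.13, 0.01 and -0.07.

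The first and the replicate arrays can be read as separate rounds, since each round holds all 3 lines on neighbouring slides: the labels give slides 1735, 1736 and 1737 for the first arrays and 1787, 1788 and 1789 for the replicates. Within the first round the Leghorn difference had a median of 0.37 for Pat, 0.39 for DT40subNB, 0.24 for DKFZ426 and -0.10 for C00041 clones. Within the replicate round it was 1.08, 0.71, 0.79 and -0.27. In both rounds the 3 smaller groups were positive and C00041 negative, and the sizes were larger in the replicate round. The order among the 3 smaller groups differed between the rounds. On the first Leghorn array itself the medians of Pat and DKFZ426 clones were -0.03 and -0.05. The positive difference of these groups in that round thus lay in the negative Fayoumi and broiler medians. Across probes the differences of the rounds correlated at r = 0.43 (rho = 0.48, 15609 probes, with no array in common). The Leghorn arrays alone correlated between the rounds at r = 0.09, and the Fayoumi and broiler arrays at 0.28 to 0.33. The value of 0.43 is therefore not a measure of agreement between the Leghorn arrays. The Leghorn difference was positive in both rounds for 73.8% of Pat, 64.6% of DT40subNB, 63.5% of DKFZ426 and 24.1% of C00041 clones, against 36% of all probes. These values depend on the signs. With every replicate array turned, r between the rounds was -0.43 by construction. It was -0.11 with both Leghorn arrays turned and -0.17 with the replicate Leghorn array turned. The share of Pat clones positive in both rounds was then 5.95%, 13.6% and 14.3%, and that of C00041 clones 19.2%, 20.1% and 19.5%.

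The plates carried the same division. The identifiers gave 77 plates with at least 20 probes, and the remaining 252 probes with a plate name lay on 74 smaller ones. The median Leghorn difference was positive on all 21 Pat plates, from 0.46 to 0.90, on all 18 DT40subNB plates, from 0.40 to 0.71, and on all 8 DKFZ426 plates, from 0.28 to 0.75. Of the 30 C00041 plates it was negative on 28, down to -0.41 on plate C0004112, and positive on 2, with 0.15 on C0004102 and 0.03 on C0004130. The sign was the same in both rounds on 74 of the 77 plates. On 75 of the 77, the centred median of the mean of the 2 Leghorn arrays and that of the other lines had opposite signs. This was not counted for each Leghorn array alone. On the first Leghorn array the clone group medians were -0.03 for Pat, 0.11 for DT40subNB, -0.05 for DKFZ426 and -0.01 for C00041 clones. All plates share the same 6 arrays, so they are not replicates of the comparison. Clone group accounted for 24.6% of the variance of the Leghorn difference across probes and plate for 27.8%, so plates within a group added little. In the first round clone group accounted for 9.19%, and in the replicate round for 25.9%. Turning both Leghorn arrays left 6 Pat, 3 DT40subNB, 3 DKFZ426 and 0 C00041 plates positive. Opposite signs of the lines were then found on 2 plates, and clone group accounted for 0.056% of the variance. With the replicate Leghorn array turned, 0 Pat, 12 DT40subNB, 3 DKFZ426 and 1 C00041 plates were positive, and clone group accounted for 0.764%. With every replicate array turned, none of the plates of the 3 smaller groups and 27 C00041 plates were positive, with 10.3% of the variance. The signs of the plates thus depended on those of the arrays.

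**Figure D3:**
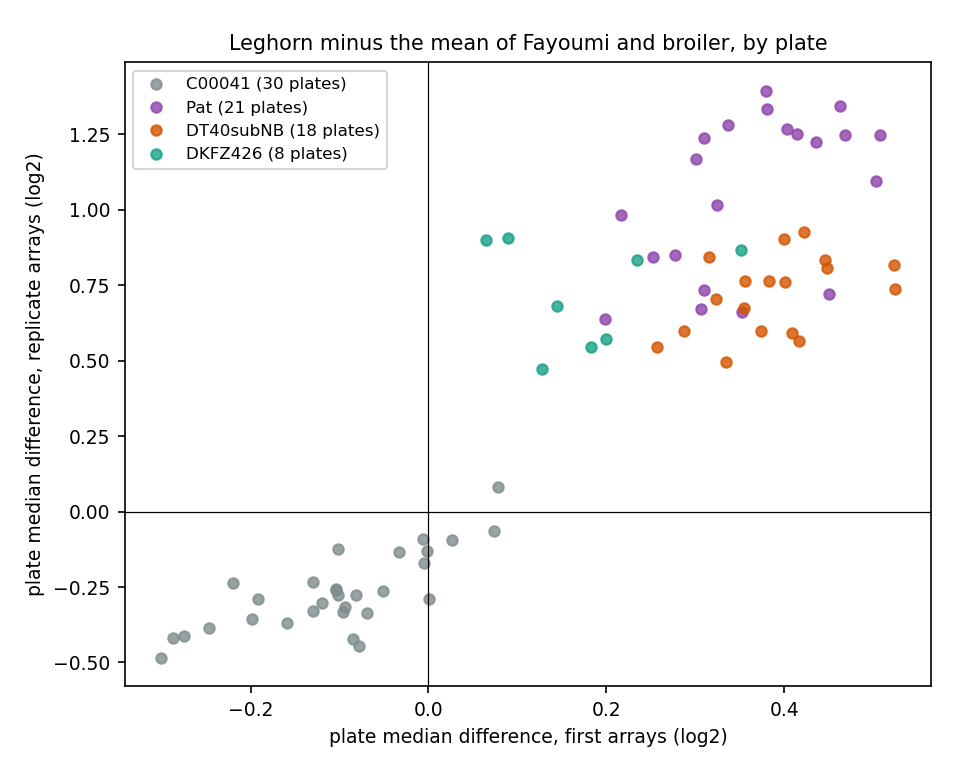
Median log2 difference, Leghorn minus the mean of Fayoumi and broiler, for each of 77 clone plates, with the first round on the horizontal and the replicate round on the vertical axis. Pat, DT40subNB and DKFZ426 plates are positive in both rounds, and most C00041 plates are negative in both.

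The test for single probes was limma's, fitted over all 23 usable arrays of the series with a mean for each of 12 groups and adjusted over 15609 probes. For Leghorn against the mean of the other lines limma called 0 probes (0%) at an adjusted p of 0.05, and the smallest adjusted p was 0.619. Without adjustment, 866 probes (5.55%) were positive and 348 (2.23%) negative at p below 0.05. The 2 directions together fell from 1214 probes to 320 without the replicate Leghorn array and to 42 without centring. Of the positive ones 316 were Pat clones, 15.9% of that group, 190 were DT40subNB clones (10.6%), 37 were DKFZ426 clones (9.79%) and 323 were C00041 clones (2.82%). Of the negative ones 340 were C00041 clones (2.97%). The typical (median) half-width of the 95% interval of a probe's log2 difference was 1.08, with quartiles of 0.91 and 1.30, and it was above the Pat median difference of 0.74 for 97.6% of the probes. In this fit, whose spread was shared by all 12 groups, a difference of that size was thus not detectable in most single probes. The shared spread took in groups whose first and replicate arrays ran in opposite directions, such as spleen at 2 h, as given below. The half-widths and counts of this fit are therefore not those of the 6 cecum 2 h arrays alone. With the 6 cecum 2 h arrays alone, 3747 probes had an unadjusted limma p below 0.05, and the smallest adjusted p was 0.152. There were 3723 with a replicate block, 2528 with array weights, 2231 with arrays scaled to a common spread and 2164 after quantile normalization. In that order, the smallest limma adjusted p was 0.089, 0.184, 0.212 and 0.0727. Limma called 0 probes in each of these fits. The limma count was also 0 with the signs turned in each of the 3 ways, with 263 probes at an unadjusted p below 0.05 for both Leghorn arrays, 197 for the replicate Leghorn array and 367 for every replicate array.

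The probes with the smallest p among those where the groups do not overlap are given by identifier. Their separation follows from that rule, and their 95% intervals are not adjusted for the choice. Probe C0004105_H3 read 0.67 and 1.31 on the first and replicate Leghorn arrays, -0.31 and -0.13 on the Fayoumi arrays and -0.60 and -0.64 on the broiler arrays. Both Leghorn arrays were positive and the other 4 negative, and Leghorn exceeded the mean of the others by 1.41 (SE 0.33, 95% interval 0.71 to 2.12, limma adjusted p = 0.619). Probe C0004101_H2 read 0.75 and 1.09 in Leghorn, -0.78 and -0.27 in Fayoumi and -0.75 and -0.37 in broiler. The lines were again on opposite sides of 0, with a difference of 1.46 (SE 0.35, 95% interval 0.72 to 2.19, limma adjusted p = 0.619). With both Leghorn arrays turned, the differences were -0.57 for C0004105_H3 and -0.37 for C0004101_H2, and with every replicate array turned -0.28 and 0.05.

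In the negative direction, probe C0004127_C6 read -2.01 and -0.44 in Leghorn, 0.81 and 0.59 in Fayoumi and 0.73 and 0.79 in broiler. The 4 arrays of the other lines lay close together, and the Leghorn arrays were far apart. The difference was -1.96 (SE 0.39, 95% interval -2.79 to -1.12, limma adjusted p = 0.619), with -2.78 in the first and -1.13 in the replicate round. Probe C0004115_B3 read -2.39 and -0.91 in Leghorn, 0.72 and 0.69 in Fayoumi and 0.67 and 0.12 in broiler. Its difference was -2.20 (SE 0.47, 95% interval -3.20 to -1.21, limma adjusted p = 0.619). For both probes the first Leghorn array was the farther from the rest, unlike the clone groups, where it was the replicate array. With both Leghorn arrays turned, the differences were 0.50 for C0004127_C6 and 1.10 for C0004115_B3. They stayed negative with every replicate array turned, at -0.82 and -0.89, and with the replicate Leghorn array alone turned, at -1.51 and -1.30.

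**Figure D4:**
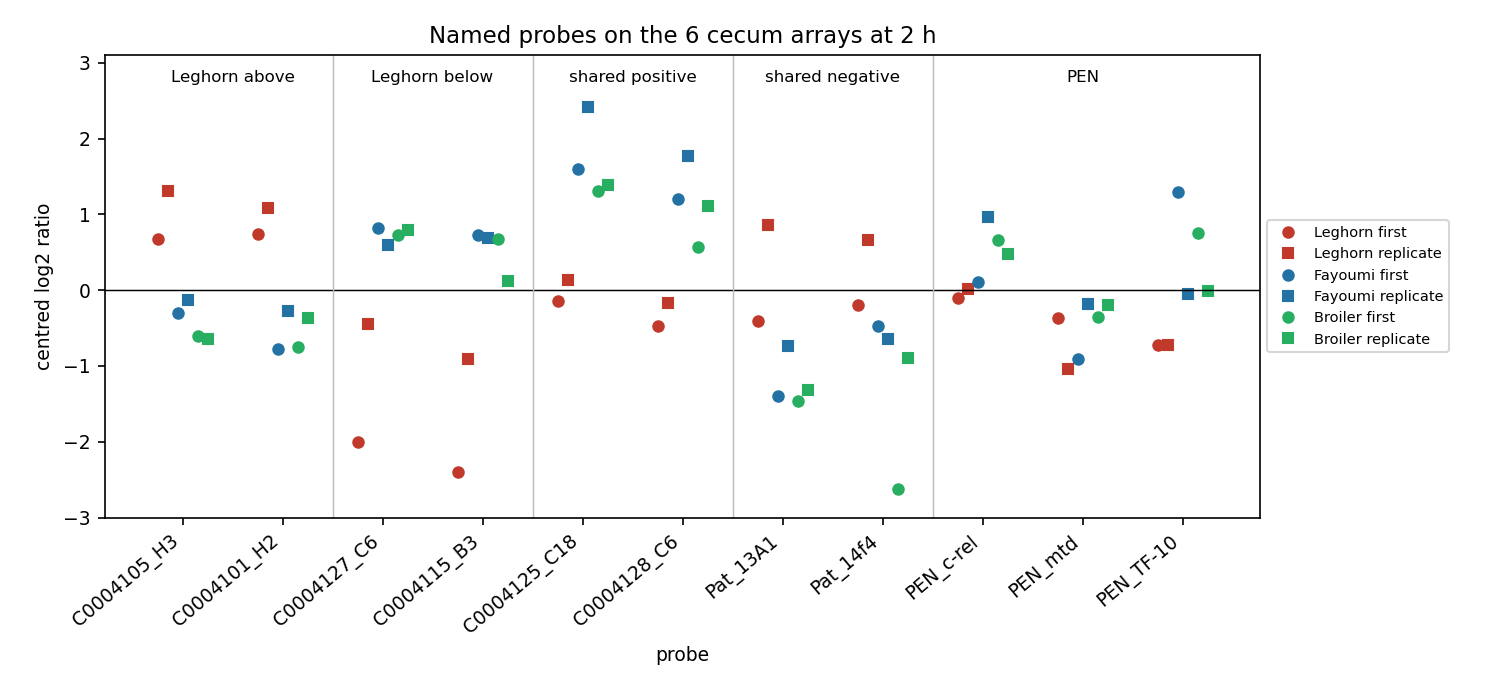
Centred log2 ratios of the named probes on the 6 cecum 2 h arrays, 1 point per array, coloured by line, with circles for first and squares for replicate arrays. For C0004105_H3, C0004101_H2, C0004127_C6 and C0004115_B3 the Leghorn points lie apart from all 4 other points, as their selection required. For C0004125_C18 the Leghorn points lie near 0 below 4 positive points.

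What Fayoumi and broiler share was measured on their 4 arrays. The same sign on all 4 was found for 2850 positive probes (18.3%) and 2677 negative probes (17.2%). Of the positive ones 2715 were C00041 clones, 23.7% of that group, against 33 Pat clones (1.66%), 84 DT40subNB clones (4.67%) and 17 DKFZ426 clones (4.5%). Of the negative ones 906 were Pat clones, 45.7% of that group, 564 DT40subNB clones (31.4%), 141 DKFZ426 clones (37.3%) and 1065 C00041 clones (9.3%). After centring, Fayoumi and broiler thus shared a tilt of the clone groups, with C00041 clones positive and the smaller groups negative. These signs are relative to the median of each array and were not counted without centring. With the replicate arrays turned, 730 probes (4.68%) were positive and 699 (4.48%) negative on all 4, with 101 Pat clones (5.09%) negative and 49 (2.47%) positive.

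The Leghorn arrays were then read over these shared probes. Over all 15609 probes, 27.5% were negative and 27.5% positive on both Leghorn arrays. Of the 2850 probes positive on the 4 arrays, 1513 (53.1%, or 9.69% of all tested) were negative on both Leghorn arrays. Another 204 (7.16%) were positive on both and 1133 had mixed signs. The first Leghorn array was negative for 63.4% of the 2850 and the replicate array for 82.5%. Of the 2677 probes negative on the 4 arrays, 1133 (42.3%, or 7.26% of all tested) were positive on both Leghorn arrays. A further 202 (7.55%) were negative on both and 1342 had mixed signs. There the first Leghorn array was negative for 48% and the replicate array for 17.2%. With the signs as deposited, both Leghorn arrays leaned against the shared positive probes, and the replicate array alone leaned against the shared negative ones. The opposite pattern of Leghorn positive and the others negative took in 16.1% of Pat, 17.6% of DT40subNB, 14% of DKFZ426 and 3.87% of C00041 clones. Turned on both Leghorn arrays, the lean was the reverse by construction, with 204 of the 2850 negative and 1513 positive on both Leghorn arrays. With the replicate Leghorn array turned, 294 were negative and 839 positive on both. With every replicate array turned, 730 probes were positive on the 4 arrays, of which 125 were negative and 212 positive on both Leghorn arrays.

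**Figure D5:**
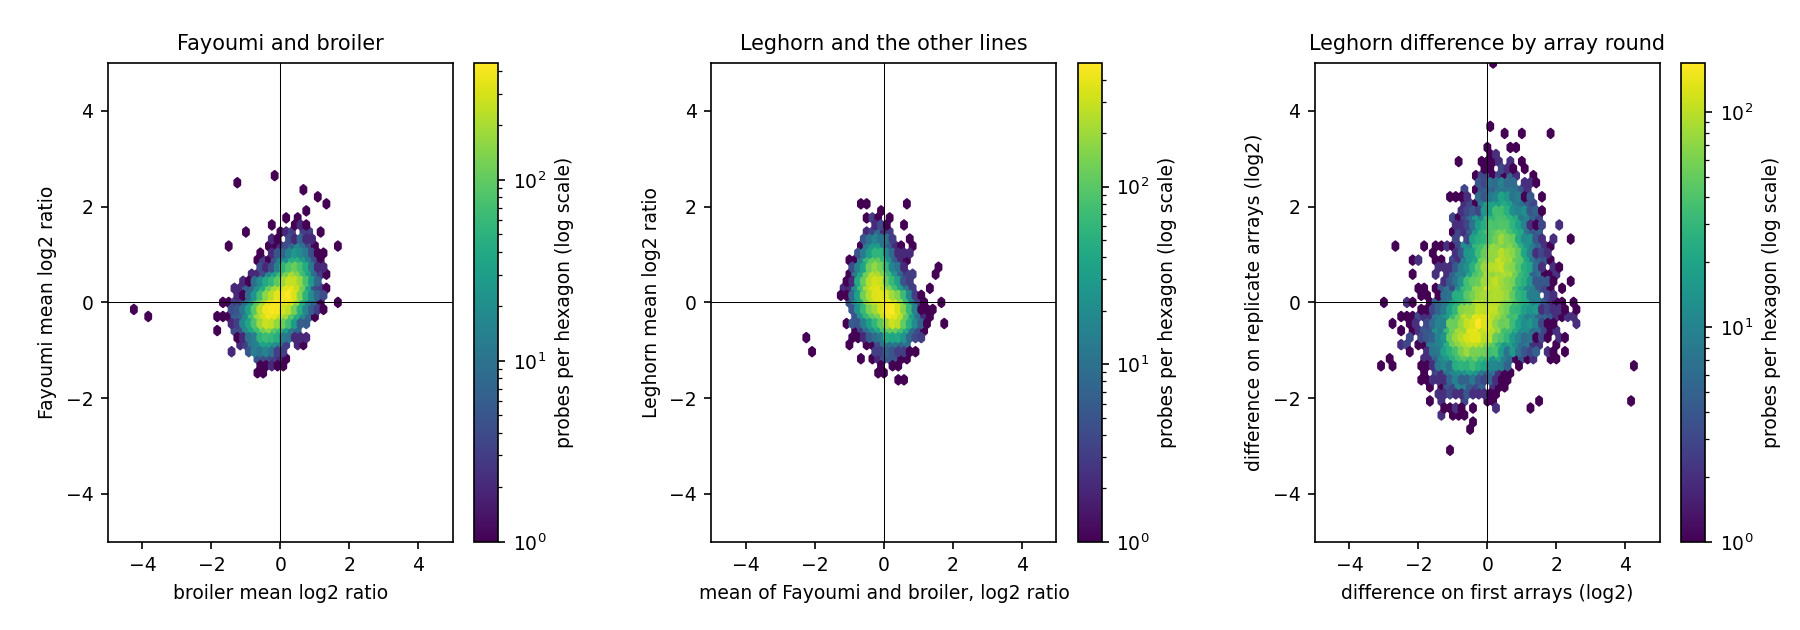
Mean centred log2 ratios of 15609 probes as hexagons coloured by the number of probes on a log scale: Fayoumi against broiler (left), Leghorn against the mean of both (middle), and the Leghorn difference in the replicate against the first round (right). The cloud slopes upward on the left (r = 0.54), downward in the middle (r = -0.44) and upward on the right (r = 0.43).

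By limma, 1 probe (0.00641%) differed from 0 in the mean of Fayoumi and broiler at an adjusted p of 0.05. Of the 15609 probes tested, 835 had an unadjusted limma p below 0.05, 421 positive and 414 negative. That count is not read as a list of probes that differ from 0. The called probe was C0004125_C18, with 1.60 and 2.41 on the first and replicate Fayoumi arrays and 1.31 and 1.38 on the broiler arrays. On the Leghorn arrays it read -0.14 and 0.13. It was thus above 1 on each Fayoumi and broiler array and near 0 in Leghorn. The Fayoumi mean was 2.01 ± 0.57 (SD, n = 2), the broiler mean 1.35 ± 0.05 (SD, n = 2) and the joint mean 1.68 (SE 0.23, 95% interval 1.18 to 2.17, limma adjusted p = 0.0286). Leghorn differed from that mean by -1.68 (limma adjusted p = 0.619). The shared probes named here and below were chosen by their Fayoumi and broiler values, which also enter the Leghorn difference. Their distance from Leghorn follows in part from that rule, and their 95% intervals are not adjusted for the choice. The call on the joint mean was lost when any 1 of the 6 arrays was left out, with limma adjusted p from 0.0571 to 0.596. With every replicate array turned, the joint mean was -0.22.

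Probe C0004128_C6 read 1.20 and 1.77 in Fayoumi, 0.57 and 1.11 in broiler, and -0.47 and -0.17 in Leghorn. It had the same order of lines as C0004125_C18 at smaller values, with a joint mean of 1.16 for Fayoumi and broiler (SE 0.21, 95% interval 0.73 to 1.60, limma adjusted p = 0.239). This probe passed the limma threshold under some other settings, with adjusted p = 0.0119 after quantile normalization and 0.00686 with array weights. It also passed with the spleen component removed (limma adjusted p = 0.0064), the plant covariate (0.0463) and a replicate block (0.0324). It did not pass with arrays scaled to a common spread (limma adjusted p = 0.0615), the 6 cecum 2 h arrays alone (0.152) or cecum arrays only (0.57), nor without centring. With every replicate array turned, the joint mean of C0004128_C6 was -0.28. Of the negative probes, Pat_13A1 read -1.39 and -0.74 in Fayoumi and -1.46 and -1.32 in broiler, with -0.41 and 0.86 in Leghorn. Its joint mean was -1.23 (SE 0.31, limma adjusted p = 0.833), and the Leghorn arrays lay above the 4 others, on both sides of 0. Pat_14f4 read -0.47 and -0.64 in Fayoumi, -2.63 and -0.89 in broiler, and -0.20 and 0.66 in Leghorn. Its joint mean of -1.16 (SE 0.31, limma adjusted p = 0.833) was drawn down by the first broiler array.

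Leghorn on its own was compared with 0 in the same way. Limma called 0 probes (0%), with a smallest adjusted p of 1. Of the 15609 tested, 677 had an unadjusted p below 0.05, 570 positive and 107 negative. Fayoumi and broiler were compared with each other: limma again called 0 probes (0%). For this comparison 86 of the 15609 had an unadjusted p below 0.05, 49 positive and 37 negative. The typical (median) half-width of its 95% interval was 1.24 per probe. Differences below that size between Fayoumi and broiler were thus mostly not detectable in this fit. With the 6 cecum 2 h arrays alone, 270 probes had an unadjusted limma p below 0.05 for this comparison, and limma called 0. The median of Fayoumi minus broiler was 0.03 over all probes and lay between -0.00 and 0.12 in the 4 clone groups, against 0.53 to 0.74 for the Leghorn difference in the 3 smaller groups.

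The 3 PEN probes are given because their identifiers contain names that can be read, a choice made after the file was opened. PEN_c-rel holds the name of c-Rel, a transcription factor of the NF-κB family that acts in lymphocytes, and the file does not state which transcript the probe detects. It read -0.10 and 0.01 in Leghorn, 0.11 and 0.97 in Fayoumi and 0.66 and 0.48 in broiler. The Leghorn arrays were the lowest, and the difference was -0.60 (SE 0.42, 95% interval -1.49 to 0.29, limma adjusted p = 0.66). PEN_TF-10 read -0.72 and -0.72 in Leghorn, 1.29 and -0.05 in Fayoumi and 0.75 and -0.01 in broiler, with a difference of -1.21 (SE 0.47, 95% interval -2.20 to -0.22, limma adjusted p = 0.619). The replicate arrays of Fayoumi and broiler were near 0 and their first arrays above it. PEN_mtd overlapped between the lines, with -0.37 and -1.04 in Leghorn, -0.91 and -0.18 in Fayoumi and -0.35 and -0.20 in broiler, and a difference of -0.29 (SE 0.52, limma adjusted p = 0.823).

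The Leghorn difference was set beside that at 16 h and in spleen. In cecum at 16 h, where broiler had 1 usable array, the median Leghorn difference was 0.04 for Pat, -0.07 for DT40subNB, -0.02 for DKFZ426 and -0.03 for C00041 clones. In spleen at 2 h it was -0.04, 0.00, -0.12 and -0.02. In spleen at 16 h it was -0.17 for Pat, -0.17 for DT40subNB, -0.08 for DKFZ426 and 0.07 for C00041 clones. All of these medians were smaller than those of the 3 smaller groups in cecum at 2 h. The values for cecum at 16 h average arrays that differ from each other. Pat clones there had medians of -0.13 and 0.70 on the first and replicate Leghorn arrays and 0.01 and 0.86 on the Fayoumi arrays. On the first broiler array, the only usable one, their median was 0.02. Per probe, limma called 0 (0%) for the change in the Leghorn difference from 2 h to 16 h in cecum, with 179 positive and 700 negative at an unadjusted p below 0.05. It called 0 (0%) for cecum against spleen at 2 h, with 662 positive and 407 negative. All these counts are out of the 15609 probes tested. The difference between the medians of a clone group was not tested.

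The 4 probes named for the Leghorn difference were also read in 16 h cecum. The Leghorn difference of C0004105_H3 was -0.88 there and that of C0004101_H2 -0.71, both of the opposite sign to 2 h. C0004105_H3 read -0.65 and -0.33 in Leghorn, 0.91 and 1.13 in Fayoumi and -0.24 on the only broiler array. C0004101_H2 read -0.05 and 0.09 in Leghorn, 0.17 and 0.56 in Fayoumi and 1.10 on the broiler array, so its value leaned on that array. The Leghorn difference was 0.40 for C0004127_C6 and -0.07 for C0004115_B3. In spleen at 2 h the differences of these 4 probes lay between -0.33 and 0.15. Whether a single probe's difference changed between times or tissues did not pass the test above.

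The tilt shared by Fayoumi and broiler in cecum also ran through other arrays of the series. The mean of the 4 arrays correlated across probes at r = 0.56, 0.51 and 0.52 with the replicate spleen 2 h arrays of Fayoumi, broiler and Leghorn. With the first spleen 2 h arrays it gave -0.43, -0.36 and -0.35. With the replicate cecum 16 h arrays it gave -0.59 for Fayoumi and -0.48 for Leghorn. Arrays of the same line, tissue and time thus took either sign, Leghorn arrays among them, and the replicate Leghorn cecum 2 h array correlated at 0.47 and 0.44 with those same 16 h arrays.

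The first principal component of the 12 spleen arrays held 61.4% of their sum of squares and was computed without a cecum array. Its sign was set so that the mean of the 4 Fayoumi and broiler cecum 2 h arrays correlated positively with it. The Leghorn cecum 2 h arrays correlated with it at -0.20 and -0.44, the Fayoumi arrays at 0.51 and 0.33, and the broiler arrays at 0.38 and 0.43. With the component regressed out of each array, the median Leghorn difference was 0.34 for Pat, 0.21 for DT40subNB, 0.18 for DKFZ426 and -0.08 for C00041 clones. Those are smaller than before and of the same sign. Of the pairs, the Leghorn arrays then correlated at 0.00, the first Fayoumi and broiler arrays at 0.35, and the replicate Leghorn array with the 4 others between -0.26 and -0.11. In that fit limma called 3 probes for Leghorn against the others, 1 positive and 2 negative, among them C0004127_C6 (adjusted p = 0.026). With the median of the plant spots as a covariate instead, the clone group medians were 0.47 for Pat, 0.32 for DT40subNB, 0.31 for DKFZ426 and 0.03 for C00041 clones, and limma called 0 probes, with 1662 at an unadjusted p below 0.05.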

How the data were processed

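The table the authors deposited holds a single value for each probe on each array, made by them from the 2 channels of the array and taken as a log2 ratio because values lie on both sides of 0. Log base, direction, scanner, background correction and normalization are not stated in the sources used here. Of 24 arrays, 23 were used, and 1 (the broiler cecum 16 h replicate) was left out because its column does not hold ratios. The file has 15769 rows. After the 160 control spots were removed, 15609 probes with a value on at least 20 arrays remained, and each array was centred on their median. R 4.3.3 with limma 3.58.1 (lmFit, eBayes) fitted a mean for each of 12 groups, with 11 residual degrees of freedom and two-sided contrasts. P-values were adjusted by Benjamini-Hochberg over all probes, with a threshold of 0.05. The contrast fit was tested on simulated independent noise with added shifts, which held no tilt shared by the probes of an array. Depth is not a property of these ratios, and the number of arrays limits the precision. The gene and marker lists could not be read without gene names. Named probes are the 2 per direction with the smallest p among probes whose groups do not overlap (Leghorn) or whose 4 arrays share a sign (Fayoumi and broiler), plus the PEN probes. Arrays, lists and rules were chosen with earlier results of these data known. Alternatives changed the centring, scale, quantile normalization, arrays fitted, replicate block, array weights, signs, the spleen component, the plant spots and the arrays left out. Figures were drawn with matplotlib 3.10.9.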

Additional observations from a re-analysis of the deposited data

Results flagged for a closer look

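After centring, the DT40subNB clones had a median difference, Leghorn minus the mean of Fayoumi and broiler, of 0.57 on the log2 scale. Their centred median was positive on both Leghorn arrays and negative on all 4 Fayoumi and broiler arrays. The C00041 clones had the reverse order, with a median difference of -0.17. Their median was above 0 on the 4 Fayoumi and broiler arrays and -0.14 on the replicate Leghorn array. On the first Leghorn array it was close to 0, at -0.01, with 48.9% of the clones above 0. In the C00041 clones the sign turned with the plant spots as a covariate and with every replicate array turned, and in the DT40subNB clones with both Leghorn arrays or every replicate array turned. The difference between the lines in these medians was not tested.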

How the results depend on the processing

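The values are limited as follows: the direction of the ratios is unknown, each group has 2 arrays, and the replicate Leghorn array weighs most in the Leghorn correlation and the clone group medians. For the mean of Fayoumi and broiler, 1 probe was called by limma as reported, 0 without centring, 16 after quantile normalization, 0 with cecum arrays only, 3 with a replicate block, 16 with array weights, 0 with replicate arrays turned, 20 with the spleen component removed, 2 with the plant spots as a covariate, and 0 to 2 when 1 array was left out. Without centring, 176 probes had an unadjusted p below 0.05. In cecum at 2 h the same-numbered arrays deviated together at r = 0.20 (Leghorn and Fayoumi), -0.05 (Leghorn and broiler) and 0.07 (Fayoumi and broiler). In spleen at 2 h they moved by round. The first Leghorn, Fayoumi and broiler arrays there correlated with the spleen component at -0.56, -0.62 and -0.69, and the replicates at 0.92, 0.85 and 0.88. Whether the arrays should be paired was thus not settled, and the main fit did not pair them. The replicate block also called C0004128_C6 (adjusted p = 0.0324) and gave 98 calls for 16 h against 2 h and 8 for cecum against spleen. With the spleen component removed there were 3 calls for Leghorn against the others, 1 for Leghorn against 0, 18 for 16 h against 2 h and 2 for cecum against spleen. All calls with that component removed carry the limit on the degrees of freedom given above. Cecum against spleen gave 2 calls with both Leghorn arrays turned, 1 with the replicate Leghorn array turned and 1 with the plant covariate. Fayoumi against broiler gave 0 to 1 when 1 array was left out, and both Leghorn counts were 0 in every fit but that with the spleen component removed. The correlation of Leghorn with the others was 0.10 with replicate arrays turned and 0.39 with the replicate Leghorn array turned. With both Leghorn arrays turned it was 0.44 by construction. This correlation was -0.0561 with first arrays only, and -0.4946 to -0.0759 when 1 array was left out. That of Fayoumi with broiler was 0.0715 with replicate arrays turned, 0.36 with the spleen component removed, 0.27 with replicate arrays only, and 0.36 to 0.54 when 1 array was left out. The clone group medians reversed with replicate arrays turned (C00041 0.0411, Pat -0.35, DT40subNB -0.16, DKFZ426 -0.24), with both Leghorn arrays turned (Pat -0.0382, DT40subNB -0.0721), with the replicate Leghorn array turned (Pat -0.13, DKFZ426 -0.0691) and with the plant covariate (C00041 0.0326). Reversed probes with replicate arrays turned were C0004105_H3 (-0.28), C0004125_C18 (-0.22), C0004128_C6 (-0.28), PEN_c-rel (0.12) and PEN_mtd (0.56). With both Leghorn arrays turned they were C0004105_H3 (-0.57), C0004101_H2 (-0.37), C0004127_C6 (0.50), C0004115_B3 (1.10), PEN_mtd (1.12) and PEN_TF-10 (0.22). PEN_mtd was also 0.75 with the replicate Leghorn array turned, 0.27 with first arrays only and -0.6329 to 0.045 when 1 array was left out, the last without the replicate Leghorn array. The causes of these changes were not tested. Of the repeats, 82 counts of probes, 192 values of named probes, 65 clone group medians and 20 correlations kept their direction and side of the threshold or stayed within the spread. The clone group medians, and the rounds, plates and shared signs with signs turned, were tried after the data were seen.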
